A study of Mus musculus with 3 samples.

Results

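Arterial-type endothelial cells line the feeding vessels of a tissue. They are described here among stromal and vascular cells from the inguinal (subcutaneous) fat of mice. A cell was taken as endothelial when at least 3 of 8 pan-endothelial genes (Pecam1, Cdh5, Egfl7, Cldn5, Ptprb, Flt1, Kdr and Emcn) had a transcript count, the leukocyte gene Ptprc had at most 1, at least 500 genes were detected and at most 15% of transcripts were mitochondrial. It was called arterial when Sema3g, Sox17, Gja5 and Hey1 together gave at least 2 unique molecular identifiers (UMIs, each standing for 1 captured transcript) and Selp plus Vwf gave fewer than 2. This rule found 318 cells among 1004 endothelial cells, 8186 cells that passed the filters and 10789 barcodes in all.

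Arterial endothelium is set apart from venous endothelium by Notch signalling: ligands such as Dll4 and Jag1 on a neighbouring cell trigger the cleavage of Notch receptors, whose intracellular part joins the DNA-binding protein RBPJ and switches on Hey genes. Upstream, SoxF factors including Sox17 drive arterial genes, and the connexins Gja4 and Gja5 join arterial cells electrically, while Nr2f2 holds the venous state. In fat, the capillaries that follow are known for fatty acid uptake through Cd36, Gpihbp1, Lpl and Fabp4.

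The study concerned what fat looks like after telomerase is deleted from mesenchymal progenitors. Each genotype was sequenced as a single library, 3 libraries in all. The wild type was TERT +/+. The other mice were TERT fl/fl with either Pdgfra-Cre or Pdgfrb-Cre, and their libraries are called by the Cre. The Cre lines delete the floxed Tert gene in cells that use either platelet-derived growth factor receptor promoter, which are mainly stromal and mural cells rather than endothelium. The sources used here give no age, sex or number of animals, and the wild-type title carries the letters PBS without saying what they stand for. Genotype and library therefore cannot be told apart, and every genotype value below is a difference between 2 libraries.

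Where 3 values are listed, the wild type comes ahead of Pdgfra-Cre and Pdgfrb-Cre is last. There were 165, 52 and 101 arterial cells out of 635, 144 and 225 endothelial cells. Their summed depth was 1096969, 536212 and 1357158 UMIs, so that 1 UMI equals 0.912, 1.86 and 0.737 CPM (UMIs scaled to a common library total). The arterial cells had medians of 3909, 5849.5 and 12473 UMIs and 1675, 2252 and 3608 genes per cell, with 3.88%, 2.93% and 2.72% mitochondrial UMIs. Capillary-type cells were the endothelial cells with 0 UMIs of the 4 arterial genes, fewer than 2 of Selp plus Vwf and fewer than 2 of the lymphatic genes Prox1, Mmrn1 and Lyve1. They numbered 281, 31 and 30, and were shallower, with medians of 1465, 1829 and 2853 UMIs. Venous-type cells (at least 2 UMIs of Selp plus Vwf, fewer than 2 of the arterial genes and fewer than 2 of the same lymphatic genes) numbered 41, 9 and 11. The arterial rule had no lymphatic limit, and 0, 1 and 2 arterial cells had at least 2 UMIs of these lymphatic genes. No arterial barcode was shared between libraries.

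The 4 genes that chose the cells are described, not tested. Sema3g (a secreted semaphorin, chr14:31217860-31230352 of GRCm38) was seen in 103, 40 and 76 arterial cells and Sox17 (chr1:4490931-4497354) in 131, 42 and 89. Hey1, a Notch target (chr3:8663359-8667256), was seen in 95, 13 and 36 cells, and Gja5, connexin 40 of larger arteries (chr3:96904693-97077416), in 21, 8 and 11. A single one of the 4 genes carried the choice in 45, 19 and 27 cells, while 11, 4 and 9 cells had all 4.

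Summed over the arterial cells, Sox17 stood at 480, 338 and 269 CPM, Sema3g at 275, 315 and 175 CPM and Hey1 at 170, 54.1 and 52.3 CPM. By these sums Hey1 and Sox17 were highest in the wild-type cells, and Sema3g was highest in Pdgfra-Cre. A fixed count of 2 UMIs asks for a higher CPM in a shallow cell than in a deep one. Median depth was 3909, 5849.5 and 12473 UMIs, so the order of these levels is partly set by the rule. The summed UMIs of the 4 genes in a cell had a median of 4, 6 and 5 and reached 53, 24 and 32. Exactly at the threshold of 2 UMIs lay 43, 13 and 19 cells, and 119, 13 and 35 endothelial cells lay just under it with 1 UMI.

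A list of other arterial genes, none of them used by the rule, was higher in cells with more of these UMIs in the wild type (cells with at least 2 lymphatic UMIs left out). This list (among others Gja4, Efnb2, Dll4, Jag1, Cxcl12 and Fbln5) summed to 4380, 4486 and 4458 CPM in capillary-type cells. Cells with 1 rule UMI held 6009, 4106 and 5020 CPM, cells with 2 held 7109, 5482 and 5455 CPM, and cells with 4 or more held 9597, 7647 and 5477 CPM. The step from cells without the rule genes to members was therefore largest in the wild type and smallest in Pdgfrb-Cre, where cells with 2 and with 4 or more UMIs stood alike. The list of capillary genes summed to 39902, 39053 and 48241 CPM at 0 UMIs and to 40713, 60437 and 56341 CPM at 4 or more, so its sum was no lower in the cells with the most rule UMIs. Most of each sum was Fabp4, at 27444, 28494 and 34485 CPM and at 29125, 44791 and 41925 CPM. Another member, Car4, was at 343, 304 and 204 CPM at 0 UMIs and at 233, 447 and 287 CPM at 4 or more, so it was lower in the wild type. Depth moved with these classes too: median UMIs per cell were 1465, 1829 and 2853 at 0 rule UMIs and 5836, 8296 and 13993 at 4 or more. The venous list summed to 2689, 1783 and 988 CPM at 0 UMIs and to 925, 1373 and 1252 CPM at 4 or more. By these lists the cells chosen carried arterial transcripts beside capillary ones.

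**Figure D1:**
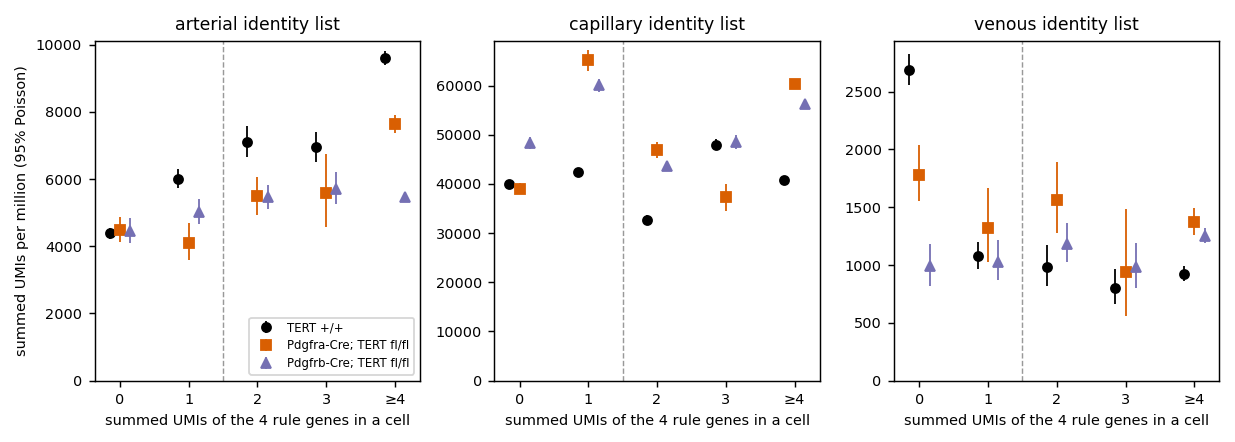
Summed CPM of the arterial, capillary and venous gene lists (rule genes left out) in endothelial cells with 0, 1, 2, 3 or at least 4 UMIs of the 4 rule genes. Points are libraries, bars are 95% Poisson intervals that cover counting error only, and the dashed line is the threshold. The wild-type arterial list goes from 4380 at 0 UMIs to 9597 at 4 or more, and its capillary list from 39902 to 40713.

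Members with Gja5 had more of the arterial list in each library and less of the capillary list in the wild type and Pdgfrb-Cre. The 21 wild-type cells with a Gja5 UMI had 11486 CPM of the arterial list against 8629 CPM in the 144 without, and 20360 CPM of the capillary list against 43449 CPM. Median depths were close, at 3384 and 3917 UMIs. The 8 Pdgfra-Cre cells with Gja5 did not show the lower capillary list, at 50809 CPM against 54533 CPM in the 44 without. The 11 Pdgfrb-Cre cells with Gja5 did, with 39962 CPM of the capillary list against 55032 CPM in the 90 without, and 8438 CPM of the arterial list against 5146 CPM. Median depths with and without Gja5 were 3096.5 and 5948.5 UMIs in Pdgfra-Cre and 13237 and 12415 UMIs in Pdgfrb-Cre. Cells with Hey1 also had less of the capillary list, 36288 CPM against 49111 CPM in wild-type cells without Hey1, 42460 CPM against 60197 CPM in Pdgfra-Cre and 46201 CPM against 57377 CPM in Pdgfrb-Cre. Cells with Hey1 were deeper than cells without it in the wild type, with medians of 4954 and 2979.5 UMIs, and in Pdgfra-Cre, with 11000 and 5691 UMIs. In Pdgfrb-Cre the medians were 12415 and 12505 UMIs.

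Transcripts of other cell types were present in these barcodes and are given here for what follows. At least 3 UMIs of mural, stromal, lymphoid, macrophage or red cell markers were found in 108, 41 and 60 arterial cells. All 12 mural markers were seen in the wild type and 11 of 12 in each Cre library (Cnn1 at 0), summing to 1857, 1335 and 1330 CPM. Stromal markers summed to 1165, 1367 and 308 CPM, and B cell markers to 237, 29.8 and 72.2 CPM. Red cell markers gave 2172, 96 and 1309 UMIs, and in Pdgfrb-Cre 1 cell held 99.8% of the haemoglobin alpha UMIs. Lymphatic markers gave 33, 427 and 246 UMIs with Prox1, Lyve1, Mmrn1 and Reln at 0 in the wild type, and 4 Pdgfra-Cre and 6 Pdgfrb-Cre cells held at least 3 of them. Keratinocyte markers were at 0 in all 3 libraries. The part of these transcripts in the results below was not tested except where a value without such barcodes is given.

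The comparison with capillary-type cells asked which genes go with the arterial rule beyond the genes in it. Arterial cells had higher levels of the vasoconstrictor peptide Edn1, the vessel matrix genes Fbln5 and Col8a1, the arterial ephrin Efnb2, the growth factor Hbegf, the taurine transporter Slc6a6, the glutamine synthetase Glul, the BMP target Id1 and the cell cycle inhibitor Cdkn1a. Of 6587 genes tested, 26 other than the rule genes passed an adjusted p of 0.05 (0.395%), 13 higher (0.197%) and 13 lower (0.197%), by edgeR's quasi-likelihood test on UMIs summed per library, with library as a block and n = 3 libraries. Log2 fold changes below come from that fit with their standard error (SE), and levels are CPM of the summed UMIs.

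Edn1 (chr13:42301476-42307990), whose peptide narrows arteries, stood at 360, 39.2 and 52.3 CPM in arterial cells and at 39.1, 24.6 and 16.3 CPM in capillary-type cells. Arterial levels were above capillary-type levels within every library, but arterial cells of the Cre libraries lay near the wild-type capillary level. The log2 fold change was 2.71 ± 0.40 (SE, adjusted p = 0.0102, edgeR). It did not pass with DESeq2 or without the wild-type library.

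Efnb2 (chr8:8617434-8661242), the ephrin-B2 ligand that marks arteries from early development, stood at 317, 242 and 233 CPM against 105, 41.1 and 131 CPM. Levels in the 2 groups did not overlap across libraries. Its log2 fold change was 1.51 ± 0.27 (SE, adjusted p = 0.0278, edgeR). Slc6a6, which carries taurine into cells, was at 519, 464 and 280 CPM against 158, 90.4 and 114 CPM, again without overlap (log2 1.73 ± 0.23 SE, adjusted p = 0.00544, edgeR).

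Fbln5 (chr12:101746565-101819055), which helps to assemble elastic fibres, was at 312, 239 and 107 CPM in arterial and 39.1, 73.9 and 57.1 CPM in capillary-type cells. Col8a1 (chr16:57624258-57754737), a short-chain collagen of vessel walls, was at 153, 114 and 47.9 CPM against 28.4, 0 and 16.3 CPM. In both genes the wild-type arterial cells were highest and the Pdgfrb-Cre arterial cells lowest. The log2 fold changes were 2.17 ± 0.35 (SE, adjusted p = 0.0139, edgeR) for Fbln5 and 2.56 ± 0.40 (SE, adjusted p = 0.0124, edgeR) for Col8a1.

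The other named genes higher in arterial cells were Hbegf (1.76 ± 0.27, adjusted p = 0.0115), Lrrc32, which holds latent TGF-beta at the cell surface (1.48 ± 0.27, adjusted p = 0.0348), Id1 (1.36 ± 0.21, adjusted p = 0.0114), Glul (1.32 ± 0.23, adjusted p = 0.0226), the endothelial membrane protein Tm4sf1 (0.90 ± 0.16, adjusted p = 0.0281) and Cdkn1a (0.90 ± 0.17, adjusted p = 0.0457), as log2 ± SE by edgeR. Id1 was at 1064, 662 and 920 CPM against 467, 304 and 237 CPM. Hbegf ran the other way between libraries from Edn1, at 54.7, 151 and 276 CPM in arterial and 16, 41.1 and 81.6 CPM in capillary-type cells.

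Promoter sequence was looked at because Notch and SoxF factors are the known arterial regulators. Of the 11 named higher genes, 7 had a window at a RefSeq start (GRCm38.p6), 9 windows in all. Only the 250 bases before the start were searched. Genes are counted with a match in any of their windows, while percentages are of single windows. The letters TGGGAA, the core that RBPJ binds, searched on both strands, were found for 2 of the 7 genes (Cdkn1a and Fbln5) and in 21.6% of all 32851 windows. The letters ACAAT of Sox factors were found for 1 of the 7 (Edn1) and in 27.7% of all windows. The 250 bases before the start are shown for the genes of the vessel wall and of vessel tone that hold a match, with the matches in capitals. For Fbln5 the window is chr12:101819120-101819369 on the minus strand, with the match 153 bases before the start, and for Edn1 it is chr13:42301226-42301475 on the plus strand, with 4 matches that share no base, 52 to 242 bases before the start. A match describes letters, not binding.

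Fbln5: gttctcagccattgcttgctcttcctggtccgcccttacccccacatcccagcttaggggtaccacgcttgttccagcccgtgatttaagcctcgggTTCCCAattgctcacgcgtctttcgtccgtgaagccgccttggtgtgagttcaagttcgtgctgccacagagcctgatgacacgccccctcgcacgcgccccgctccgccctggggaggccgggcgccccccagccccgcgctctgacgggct

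Edn1: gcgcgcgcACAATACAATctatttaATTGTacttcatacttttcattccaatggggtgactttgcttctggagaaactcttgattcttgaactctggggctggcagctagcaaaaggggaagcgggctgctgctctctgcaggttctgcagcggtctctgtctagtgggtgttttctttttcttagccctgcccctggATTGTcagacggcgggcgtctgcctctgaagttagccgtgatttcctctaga

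**Figure D2:**
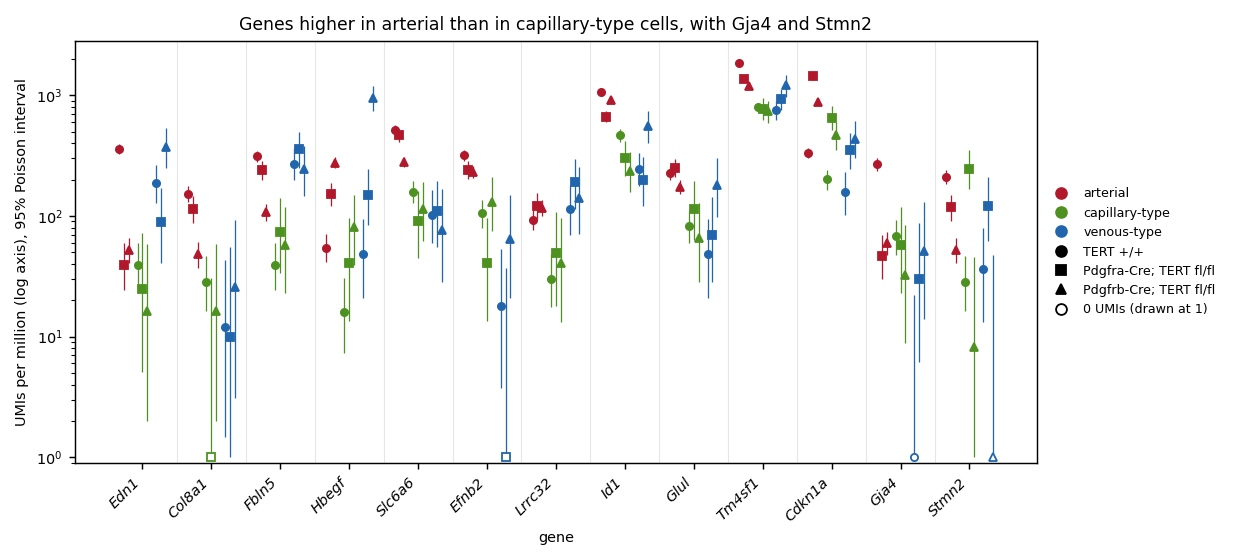
CPM (log axis) of the 11 named genes higher in arterial cells, with Gja4 and Stmn2, in arterial, capillary-type and venous-type cells. Each point is 1 library with its 95% Poisson interval, and open points are 0 UMIs drawn at 1. Among arterial cells Edn1 and Gja4 are highest in the wild type, while Efnb2 and Slc6a6 are above capillary-type cells in all 3 libraries.

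Classical arterial genes beyond these were less even. Of 26 tested members of the arterial list, 4 were higher (Efnb2, Fbln5, Edn1 and Tm4sf1) and 0 lower, and 21 had a positive log2 value, with a median of 0.75 against -0.01 over all genes tested. With groups chosen at equal depth, in 1 draw 12 of 27 were higher and 0 lower (median 0.85), against 44 higher and 22 lower of all 6023 genes tested. Gja4 (log2 1.66), Unc5b (1.45) and Vegfc (1.83) were among the 12 but did not pass in the other draw, where 10 genes passed in all. Of the 12, Efnb2 and Stmn2 passed in both draws. Gja4, connexin 37, was at 267, 46.6 and 59.7 CPM against 67.5, 57.5 and 32.7 CPM, a log2 value of 1.36 ± 0.38 (SE) that did not pass (adjusted p = 0.28, edgeR). Its arterial level lay above the capillary-type one in the wild type and Pdgfrb-Cre and below it in Pdgfra-Cre. Stmn2 had 211, 117 and 52.3 CPM against 28.4, 246 and 8.16 CPM (log2 1.07, adjusted p = 0.808, edgeR), Unc5b a log2 value of 1.39 (adjusted p = 0.133, edgeR) and Vegfc 2.44 (adjusted p = 0.127, edgeR).

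No Notch pathway gene passed the test against capillary-type cells, where 0.395% of all genes did. Of 24 tested members 0 passed and 18 were positive, against 3250 positive of 6587 genes tested. The median log2 value was 0.12, against -0.01 over all genes tested. With calls this rare, 0 of 24 cannot tell the list from other genes. The ligand Dll4 was at 132, 145 and 239 CPM in arterial and 96, 82.2 and 253 CPM in capillary-type cells, and the receptor Notch1 at 191, 209 and 261 CPM against 135, 73.9 and 204 CPM. Jag1 was at 145, 39.2 and 50.1 CPM against 83.5, 24.6 and 65.3 CPM. For all 3 genes the 2 groups overlapped across libraries.

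Genes of the capillary fatty acid programme were abundant in arterial cells, and none passed the test against capillary-type cells. None of 20 capillary genes passed (0 of 20, 15 positive, median log2 0.17) and none of 13 fatty acid genes (0 of 13, 9 positive, median 0.19). At 0.395% of all genes called, 0 calls in lists of this size say little. With groups chosen at equal depth the medians of both lists turned, to -0.18 for the capillary list (4 of 20 positive, Aqp1 and Aplnr lower) and -0.27 for the fatty acid list (2 of 12 positive, 0 called). These values are from 1 draw, where 22 of all 6023 genes tested were lower. The capillary-type group chosen that way also held members of the arterial group, as given below. The fatty acid receptor Cd36 stood at 3163, 3435 and 3678 CPM in arterial and 3167, 2432 and 4229 CPM in capillary-type cells (log2 0.06 ± 0.14 SE, adjusted p = 0.997, edgeR). Fabp4, the fatty acid binding protein and among the most abundant transcripts, was at 28644, 39546 and 39664 CPM against 27444, 28494 and 34485 CPM (log2 0.21 ± 0.08 SE, adjusted p = 0.578, edgeR). Gpihbp1, which anchors lipoprotein lipase, was at 1530, 2374 and 2072 CPM against 1519, 1512 and 2041 CPM (log2 0.19 ± 0.15 SE, adjusted p = 0.904, edgeR).

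Of the venous list, 0 of 14 tested members passed and 4 were positive, with a median of -0.44. Lrg1, a venous marker, was at 68.4, 39.2 and 14 CPM against 188, 73.9 and 32.7 CPM (log2 -1.34 ± 0.27 SE, adjusted p = 0.0563, edgeR). Immediate early genes had a median of 0.40 with 23 of 26 positive, and 0 of 26 passed. Over all genes 0.395% passed and the median was -0.01, so the 0 calls say little about the venous or immediate early list. Among the genes of BMP and TGF-beta signalling, 1 of 17 passed (Id1).

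Of the 10 named lower genes, 5 are leukocyte genes. The immunoglobulin genes Ighm (log2 -3.24, adjusted p = 0.0175) and Igkc (-1.62, adjusted p = 0.0124), the MHC class II genes Cd74 (-2.63, adjusted p = 0.00271) and H2-Ab1 (-2.46, adjusted p = 0.0158) and the T and NK cell chemokine Ccl5 (-2.27, adjusted p = 0.00544) were lower in arterial cells by edgeR. Of 3 tested MHC class II genes all 3 passed, but with groups chosen at equal depth 0 of the 2 still tested did (median log2 -0.86). B cell markers moved with them: their summed level was 237, 29.8 and 72.2 CPM in arterial cells and 809, 49.3 and 612 CPM in the shallower capillary-type cells. Igkc was not lower when the groups were chosen at equal depth (log2 0.39 and 0.51 in the 2 draws described below). Stromal markers summed to 659, 6548 and 4041 CPM in capillary-type cells against 1165, 1367 and 308 CPM in arterial cells, and the stromal growth factor Igf1 was lower in arterial cells (-2.29, adjusted p = 0.0115, edgeR). The part of either lineage was not tested. The syndecan Sdc4 (-2.28), the membrane protein Basp1 (-3.17) and 2 transcripts annotated over ribosomal RNA, AY036118 (-0.97) and Gm42418 (-0.74), made up the remaining named lower genes.

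Deep cells pass a rule of 2 UMIs more easily than shallow ones, so groups were also chosen on counts thinned to 2000 UMIs per cell and tested at full depth. On the arterial side only members by the full-depth rule were kept, 124 of 156 cells in the first draw. The capillary-type side had no such limit, and 59 of its 220 cells there were members. What this difference adds to the values was not tested. This choice of groups was added after the data were seen and depended on the random draw: 66 of 6023 genes passed in the first draw (1.1%) and 10 in another, with 8 in both. The 8 were Efnb2 (log2 1.42 and 1.55), Slc6a6 (1.34 and 1.54), Glul (1.41 and 1.18), Col8a1 (2.51 and 2.19), Stmn2 (2.42 and 2.18) and the insulin-like growth factor binding protein Igfbp3 (1.44 and 1.34), which were higher, and Lrg1 (-2.15 and -2.69) and the water channel Aqp1 (-1.86 and -1.61), which were lower. With cells of both groups held between the 10% and 90% points of arterial depth in their library, 39 of 5574 genes passed (0.7%), 15 of them among the 26. Without library as a block 0 genes passed the edgeR test (278 at an unadjusted p under 0.05), and DESeq2 with the block called 20, of which 18 were shared. Of 17 named genes tested, 8 passed in the one draw and 4 in the other. Of the higher ones, Hbegf, Id1, Lrrc32 and Cdkn1a did not pass in either draw, and Edn1, Fbln5 and Tm4sf1 passed in 1 draw. Of the lower ones, Cd74, H2-Ab1, Igkc, AY036118 and Gm42418 did not pass in either. Without the wild-type library 15 of 18 named genes still tested were not called.

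Against venous-type cells the arterial cells differed in capillary as well as arterial genes. This fit had 2 libraries, wild type and Pdgfrb-Cre, because Pdgfra-Cre had 9 venous-type cells. Of 7075 genes, 268 passed (3.79%), 116 higher (1.64%) and 152 lower (2.15%), by the same edgeR test with n = 2 libraries. Values for Pdgfra-Cre are listed but were not in the fit, and red cell markers summed to 68723 CPM in its venous-type cells, where 1 cell held 3 or more of them.

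On the arterial side, Efnb2 was at 18.1, 0 and 64.2 CPM in venous-type cells (log2 2.98 ± 0.49 SE, adjusted p = 0.00373, edgeR). The Notch receptor Notch4 was at 67.5, 70.9 and 84.7 CPM in arterial against 0, 9.99 and 12.8 CPM in venous-type cells (log2 4.02), and the Notch ligand Jag2 at 99.4, 74.6 and 78.1 CPM against 18.1, 30.0 and 0 CPM (log2 2.89). The chemokine Cxcl12 was at 2382, 1311 and 740 CPM against 295, 459 and 270 CPM (log2 2.29 ± 0.42 SE). In these 4 genes the groups did not overlap. Of 26 arterial genes, 6 were higher (Stmn2 and Unc5b besides these) and 3 lower, against 1.64% and 2.15% of all genes tested. The median was 0.77 against 0.08 over all genes.

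The 3 arterial-list genes that were lower than in venous-type cells code for matrix or secreted proteins: elastin (Eln, log2 -3.08 ± 0.34 SE), Fbln2 (-1.68) and clusterin (Clu, -1.59). Edn1 and Fbln5, higher than in capillary-type cells, were not higher than in venous-type cells. Edn1 was at 187, 89.9 and 372 CPM there (log2 -0.77, adjusted p = 0.748, edgeR) and Fbln5 at 271, 359 and 244 CPM (log2 -0.42, adjusted p = 0.754, edgeR). Lrrc32 (-0.35) and Hbegf (-1.25) did not pass either.

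Of 20 capillary genes, 10 were higher in arterial than in venous-type cells and 2 lower (median log2 1.77), against 1.64% and 2.15% of all genes tested. Btnl9, a capillary butyrophilin, was at 511, 653 and 553 CPM against 6.02, 0 and 0 CPM (log2 6.89 ± 0.61 SE, adjusted p = 3.45e-05, edgeR). Rgcc was at 728, 1406 and 1236 CPM against 12.0, 150 and 116 CPM (log2 4.22 ± 0.48 SE), and Gpihbp1 at 175, 369 and 475 CPM in venous-type cells (log2 2.55 ± 0.38 SE). The carbonic anhydrase Car4 (3.97), Timp4 (6.36), Lpl (2.43), the glycerol channel Aqp7 (2.75) and the transcription factor Tcf15 (1.96) were also higher. The 2 that were lower were Plvap, which forms the diaphragms of fenestrae and caveolae (log2 -2.72 ± 0.36 SE), and Aqp1 (-1.71).

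Of 16 venous genes tested, 12 were lower in arterial cells and 0 higher (median log2 -2.58), against 2.15% and 1.64% of all genes tested. Ackr1, the chemokine-binding receptor of venules, was at 6.38, 1.86 and 1.47 CPM in arterial and 699, 639 and 257 CPM in venous-type cells (log2 -6.95 ± 0.41 SE, adjusted p = 6.96e-07, edgeR). The adhesion receptors Sele (log2 -7.33) and Vcam1 (-4.63 ± 0.43 SE), Lrg1 (-5.66 ± 0.44 SE) and the venous regulator Nr2f2 (-1.37) were lower too. Nr2f2 was still detected in arterial cells, at 151, 166 and 111 CPM against 488, 300 and 180 CPM. Other named lower genes were the leukotriene receptor Cysltr1 (-7.32), Cytl1 (-6.04), the lipopolysaccharide binding protein Lbp (-5.91), the adenosine-forming enzyme Nt5e (-5.77) and the oxidase subunit Cybb (-5.75). Comp had 0 UMIs in arterial cells of the libraries fitted, at least 53.7-fold lower when 0 is set to 3 UMIs over the group.

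Some genes had 0 venous-type UMIs in the fitted libraries, so their change is a lower bound with 0 set to 3 UMIs over the group. Tmem182 was at least 10.5-fold higher, Arhgef28 at least 6.79-fold, Igfbp3 at least 6.46-fold, the netrin receptor Unc5b and the myosin Myh10 each at least 5.37-fold and Eps8l2 at least 4.08-fold. With DESeq2, 7 of 15 named genes tested were not called (Tmem182, Igfbp3, Unc5b, Myh10, Comp, Hba-a1 and Hba-a2). Without the library block 5 of 16 were not called (Igfbp3, Unc5b, Myh10, Eps8l2 and Hba-a2). Hba-a1 and Hba-a2 were named by the same rule, but in the wild type 8 arterial cells held at least 10 UMIs of both haemoglobin chains and in Pdgfrb-Cre 1 cell held nearly all of them.

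Among genes of vascular tone, the endothelin receptor Ednrb was higher (234, 259 and 304 CPM against 18.1, 0 and 25.7 CPM, log2 3.57 ± 0.46 SE), with Npr3 (3.1), Cav1 (1.46) and Adora2a (at least 3.45-fold), and the cyclooxygenase Ptgs1 lower (-4.65), out of 13. Pdgfb, which recruits mural cells, was at 225, 144 and 136 CPM against 30.1, 39.9 and 51.3 CPM (log2 2.27). Of 21 leukocyte adhesion and chemokine genes, 2 were higher and 6 lower. Among 24 Notch pathway genes, 2 were higher (Notch4 and Jag2) and 1 lower (Psen2). The shares beside these lists, over all genes tested, were 1.64% higher and 2.15% lower. Counts as small as those of the Notch list say little about a list.

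With groups chosen at equal depth, all 3 libraries had enough venous-type cells for the fit. Then 298 of 3982 genes passed (7.48%), 457 in another draw, and 261 passed in both, 102 higher and 159 lower. Efnb2 (2.95 and 3.39), Unc5b (4.24 and 4.56), Dll4 (2.08 and 2.92), Btnl9 (3.69 and 4.49), Sele (-8.10 and -8.43) and Ackr1 (-7.03 and -7.46) were among the 261. Dll4 had not passed with groups chosen at full depth in 2 libraries (log2 2.10, adjusted p = 0.0974, edgeR). DESeq2 called 109 genes and the fit without a block 60. 

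**Figure D3:**
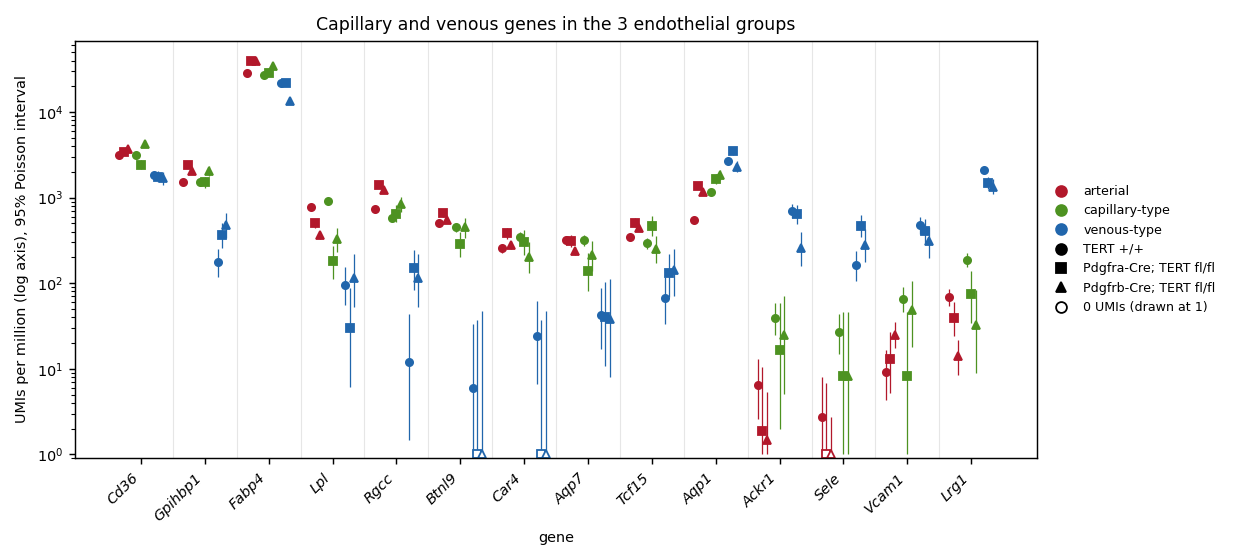
CPM (log axis) of capillary and venous genes in arterial, capillary-type and venous-type cells, 1 point per library with its 95% Poisson interval and open points for 0 UMIs. Arterial and capillary-type cells overlap for Cd36, Gpihbp1 and Fabp4, while Ackr1 is between 1.47 and 6.38 in arterial cells and at 257 or more in venous-type cells.

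The arterial share of endothelial cells was 26.0% in the wild type (95% exact binomial interval 22.6 to 29.6), 36.1% in Pdgfra-Cre (28.3 to 44.5) and 44.9% in Pdgfrb-Cre (38.3 to 51.6). These intervals cover counting error only, and 1 library per genotype allows no test. The order of the shares followed the depth of the arterial cells. With every endothelial cell thinned to 2000 UMIs the shares were 27.7%, 25.7% and 24.5%, and 26.9%, 29.0% and 27.2% in another draw, so the libraries no longer differed beyond counting error. That left out 325, 32 and 31 shallower endothelial cells, of which 46, 8 and 4 were arterial. Without thinning, cells of at least 2000 UMIs gave 38.4%, 39.3% and 50%. As a share of all cells that passed the filters, arterial cells were 6.05%, 3.65% and 2.50%.

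**Figure D4:**
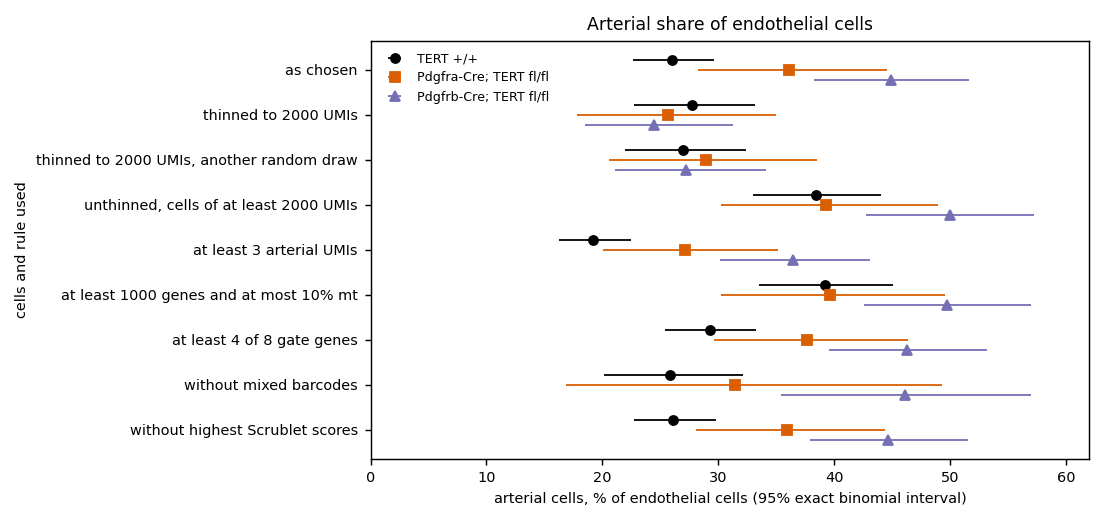
Arterial cells as a percentage of endothelial cells in each library under the rule as given and under other choices of cells and threshold, with 95% exact binomial intervals. The spread from 26.0 to 44.9 under the rule as given narrows to 24.5 to 27.7 when cells are thinned to 2000 UMIs.

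Within arterial cells the Cre libraries were compared with the wild type as ratios of CPM, with exact binomial intervals that cover counting error and not the spread between cells or animals. Edn1, Gja4 and Jag1 were lower in both Cre libraries, and Cdkn1a and the immediate early gene Egr1 were higher in both. These ratios cover the 165, 52 and 101 members only. Selp plus Vwf left out 27, 25 and 45 other cells with at least 2 UMIs of the rule genes, with medians of 10420, 16185 and 16757 UMIs. What leaving them out adds to the ratios was not tested. Among genes with at least 50 CPM and 20 UMIs in the higher library, 339 of 3687 differed at least 2-fold in Pdgfra-Cre (9.19%), 211 higher (5.72%) and 128 lower (3.47%). In Pdgfrb-Cre 438 of 3631 did (12.1%), 282 higher (7.77%) and 156 lower (4.3%). The 2 comparisons share the wild-type cells. The balance of directions depended on the cells taken: in Pdgfra-Cre 68 genes were higher and 234 lower without mixed barcodes (11 cells), 95 and 364 among members that also passed the rule at 2000 UMIs (18 cells), and 159 and 169 without barcodes of 10 or more UMIs of other lineages (35 cells). In Pdgfrb-Cre the higher genes were more numerous in all 3 (444 and 114, 378 and 321, 355 and 175). Between the 2 Cre libraries 210 of 3645 genes differed 2-fold (5.76%), 103 higher (2.83%) and 107 lower (2.94%) in Pdgfrb-Cre. The higher ones were thus 49.0% of these, and 59.6% when libraries were scaled by median-of-ratios size factors. Without mixed barcodes 513 were higher and 24 lower, among members that passed at 2000 UMIs 311 and 64, and without barcodes of 10 or more UMIs of other lineages 163 and 68.

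The targeted gene could not check the labels here: Tert had 0 UMIs in the arterial cells of all 3 libraries, which allows up to 2.73, 5.59 and 2.21 CPM at 3 UMIs. Pdgfra, whose promoter drives 1 of the Cre lines, was at 13.7, 5.59 and 0.737 CPM and Pdgfrb at 65.6, 31.7 and 74.4 CPM in arterial cells.

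Edn1 was 9.19-fold lower in Pdgfra-Cre (95% interval 5.93 to 15) and 6.88-fold lower in Pdgfrb-Cre (5.33 to 8.99). It was seen in 57.6% of wild-type arterial cells against 15.4% and 19.8%, although the Cre cells were deeper. In capillary-type cells the same libraries had ratios of 0.63 (0.121 to 2.1) and 0.418 (0.0476 to 1.7), on few UMIs. Among members that also passed the rule at 2000 UMIs, Edn1 was at 588, 16.8 and 59.8 CPM, with 2 UMIs behind the Pdgfra-Cre value. The gap between libraries was thus also seen among these members, whose medians at full depth were 4624, 3947 and 8376 UMIs. They had to pass the rule at full depth as well, which kept 74 of 82, 18 of 28 and 32 of 46 cells. The part of depth and of the rule in this gap was not tested.

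Gja4 was 5.73-fold lower in Pdgfra-Cre (3.8 to 9) and 4.48-fold lower in Pdgfrb-Cre (3.49 to 5.80), and at 408, 75.6 and 108 CPM among members chosen at equal depth. Jag1 was 3.70-fold (2.34 to 6.14) and 2.89-fold lower (2.16 to 3.90). Ace, the angiotensin-converting enzyme, was 3.50-fold (2.13 to 6.10) and 3.19-fold lower (2.29 to 4.52). These 3 genes were lower in both Cre libraries by intervals that exclude 1. In capillary-type cells Gja4 was at 67.5, 57.5 and 32.7 CPM and Jag1 at 83.5, 24.6 and 65.3 CPM. Jag1 was thus lower in Pdgfra-Cre there too, with 3 UMIs behind that value.

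A further set was lower mainly in Pdgfrb-Cre. Cxcl12 was 1.82-fold lower in Pdgfra-Cre and 3.22-fold (2.99 to 3.47) in Pdgfrb-Cre, Stmn2 1.80-fold and 4.04-fold (3.09 to 5.35), Fbln5 1.31-fold and 2.92-fold (2.40 to 3.57), and Col8a1 1.35-fold and 3.20-fold (2.39 to 4.33). In capillary-type cells Cxcl12 was at 1068, 518 and 686 CPM, so it was lower in both Cre libraries there too. Fbln5 was at 39.1, 73.9 and 57.1 CPM there, and Stmn2 at 28.4, 246 and 8.16 CPM. Among members chosen at equal depth Fbln5 was at 444, 639 and 179 CPM and Stmn2 at 339, 319 and 71.2 CPM, so the small Pdgfra-Cre differences of these 2 genes were not kept while those of Pdgfrb-Cre were. Efnb2 was lower in both by less than 2-fold, with ratios of 0.764 (0.62 to 0.937) and 0.734 (0.628 to 0.857), intervals that exclude 1.

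The Notch ligand Dll4 did not move with Jag1. The ratio of Dll4 was 1.10 (0.825 to 1.46) in Pdgfra-Cre and 1.81 (1.49 to 2.22) in Pdgfrb-Cre, where capillary-type cells showed 2.64. Notch1 had 1.09 and 1.36, and Notch4 1.05 and 1.26. Over the Notch list the median log2 ratio was 0.05 and -0.13, and in Pdgfra-Cre it changed sign under other choices of cells and scale.

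Over the arterial list, the median log2 ratio (10 CPM added on both sides) was -0.37 in Pdgfra-Cre and -0.62 in Pdgfrb-Cre, against 0.02 and -0.04 over all genes of at least 10 CPM. Of 28 members, 7 were at least 2-fold lower and 2 higher in Pdgfra-Cre, and 13 lower and 0 higher in Pdgfrb-Cre. Over all genes of at least 10 CPM the shares were 9.42% lower and 8.44% higher in Pdgfra-Cre, and 8.94% and 7.89% in Pdgfrb-Cre. Between the Cre libraries 8 of 27 list members were lower and 1 higher in Pdgfrb-Cre (median -0.20), against 7.32% and 6.38% of all such genes. Without barcodes of 10 or more UMIs of other lineages the arterial medians were -0.03 and -0.40, so the Pdgfra-Cre value did not hold there. The capillary list had medians of 0.27 and 0.17, and -0.09 in both without those barcodes. Within it, Plvap was 9.44-fold (6.75 to 13.6) and 3.84-fold (3.30 to 4.48) lower, as it was in capillary-type cells (ratios 0.21 and 0.0783), and Aqp1 was 2.46-fold (2.21 to 2.75) and 2.11-fold (1.92 to 2.33) higher.

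Among genes higher in the Cre libraries, Cdkn1a, which codes for p21, was at 333, 1438 and 884 CPM, ratios of 4.32 (3.81 to 4.91) and 2.66 (2.36 to 3). Capillary-type cells showed 3.23 and 2.32, and members chosen at equal depth were at 430, 1202 and 1105 CPM. The list of p53 targets, Cdkn1a included, had medians of 0.04 and 0.19, with 3 of 18 members at least 2-fold higher and 1 lower in Pdgfra-Cre and 4 of 19 higher and 0 lower in Pdgfrb-Cre. The transcription factor gene Egr1 was at 678, 2719 and 2722 CPM, ratios of 4.01 in both, and capillary-type cells showed 8.34 and 8.37. Immediate early genes had medians of 0.32 and 0.60, with 5 and 10 of 27 at least 2-fold higher and 0 lower. The shares beside both lists, over all genes of at least 10 CPM, were 8.44% and 7.89% higher and 9.42% and 8.94% lower.

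Several inflammatory genes had larger ratios in Pdgfrb-Cre than in Pdgfra-Cre. Icam1, a leukocyte adhesion receptor, was at 93.0, 157 and 397 CPM, ratios of 1.68 (1.25 to 2.27) and 4.27 (3.45 to 5.33). The chemokine genes Cxcl10 (16.2-fold), Cxcl2 (206 against 2.73 CPM) and Ccl2 (113 against 5.47 CPM), with the urokinase receptor Plaur (27.5-fold), the TWEAK receptor Tnfrsf12a (11.5-fold) and Noct (20-fold), were among the 8 highest ratios in Pdgfrb-Cre. In capillary-type cells Cxcl2 and Ccl2 also differed, with ratios of 24.5 (7.01 to 131) and 115 (30.2 to 974). Cxcl1 was higher in both, 9.58-fold and 8.08-fold, but in Pdgfra-Cre 1 cell held 76.2% of its UMIs and members chosen at equal depth stood at 57.2, 42.0 and 251 CPM. Of 20 adhesion and chemokine genes, 7 and 9 were at least 2-fold higher and 0 and 1 lower. Over all genes of at least 10 CPM, 8.44% and 7.89% were higher and 9.42% and 8.94% lower.

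Tmem252, a member of the venous list that was lower in arterial than in venous-type cells (log2 -2.14), was at 40.1, 423 and 136 CPM, ratios of 10.6 (7.61 to 14.9) and 3.4 (2.43 to 4.84). In Pdgfra-Cre 1 cell held 25.6% of its UMIs. Capillary-type cells showed 1.78 (0.765 to 3.81) and 0.53 (0.103 to 1.73), and members chosen at equal depth were at 49.3, 412 and 208 CPM. The heat shock genes Hspa1a and Hspa1b, near-identical copies whose reads may be split, were 10.6-fold and 10.7-fold lower in Pdgfra-Cre and 4.60-fold and 4.42-fold lower in Pdgfrb-Cre, as in capillary-type cells (Hspa1a ratios 0.0601 and 0.153).

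Several of the largest ratios had the same direction in capillary-type cells or came from single cells. Gdpd3 was at 887, 1.86 and 2.21 CPM in arterial and 908, 0 and 0 CPM in capillary-type cells, and Rpl29 at 67.5, 806 and 785 CPM against 69.3, 813 and 898 CPM. Gm8797, Slamf1, Cd74 and Ccl5, also among the 8 lowest, were lower in capillary-type cells as well. In Pdgfra-Cre the lymphatic genes Ccl21a, Lyve1, Mmrn1 and Reln were among the 8 highest with Fgl2 and Lcn2, and for each of these 6 genes 1 cell held at least 96.3% of the UMIs (99.9% for Ccl21a). Ccl21a was also among the 8 highest in Pdgfrb-Cre, with 57.2% of its UMIs in 1 cell. Haemoglobin genes were among the 8 lowest (Hba-a1 and Hbb-bs in Pdgfra-Cre, Hbb-bt in Pdgfrb-Cre), and the 8 wild-type cells with both chains were given above. Dcn and Clec3b were among the 8 lowest in Pdgfrb-Cre, with 88.7% and 82.8% of the wild-type UMIs in 1 cell.

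**Figure D5:**
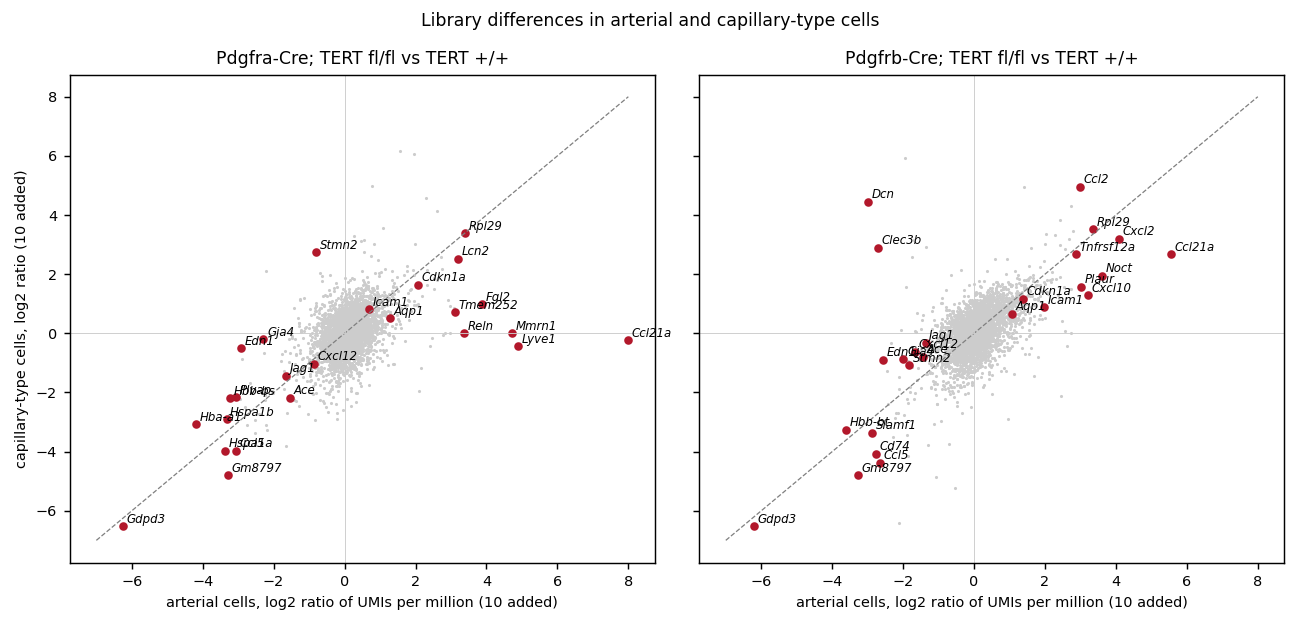
Log2 ratio (10 CPM added) of each Cre library to the wild type in arterial cells (horizontal axis) and in capillary-type cells (vertical axis), with 1 grey point per gene and named genes in red. The dashed line marks equal ratios. Edn1 and Gja4 lie left of the line at -2.91 and -2.29 in Pdgfra-Cre, and Gdpd3 and Rpl29 lie close to it.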

How the data were processed

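The labels describe stromal and vascular cells of inguinal fat, freed of dead and red blood cells, in 3 single-cell 3′ libraries. The authors deposited raw UMI counts per gene and barcode, made with Cell Ranger 3.1.0 and STAR 2.6 on mm10, per the submitters' processing notes. From those counts, UMIs were summed per library and endothelial group and divided by the group's total (CPM). The members, gene lists and tests were chosen with earlier results of these data known.

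Groups were compared with edgeR 4.0.16 (R 4.3.3; TMM, low-count filter, quasi-likelihood test, Benjamini-Hochberg adjustment over all genes tested), with library as a block because both groups come from the same library. DESeq2 1.42.0 was an alternative. Libraries with at least 10 cells in both groups entered. The block pairs groups of the same library, and with 1 library per genotype p-values measure only the spread between these 3 libraries. Cells were handled with scanpy 1.11.5. Doublets were scored with Scrublet and kept (2, 1 and 5 arterial cells scored highest), and the shares were also computed without them. Libraries shared 1 to 5 barcodes, none of them arterial. Gene positions are from GENCODE M21 on GRCm38, and promoters from RefSeq.

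Named genes were, against capillary-type cells, up to 15 each way by log2 fold change past an adjusted p of 0.05, at 50 CPM or more and of the same direction in every library. Against venous-type cells they were 8 each way, and between libraries the 8 highest and 8 lowest log2 ratios with 10 CPM added. Members of the gene lists were named too. In simulated counts with known changes, the capillary comparison (6475 genes) recovered 32.3% of 2-fold and 97.0% of 4-fold changes, that is log2 1 and 2, and called 6 unchanged genes. The venous comparison (7137 genes) recovered 9.09% and 73.2%. Groups chosen on thinned counts, the limit of 10 other-lineage UMIs, another draw and the unthinned share over deep cells were alternatives chosen after seeing the data.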

Additional observations from a re-analysis of the deposited data

How the results depend on the processing

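Against capillary-type cells 26 genes passed. Without the library block (the pairing of groups by library) 0 passed by edgeR, with 278 at an unadjusted p under 0.05, and no filter on low counts gave 183. Leaving out 1 library gave 37 (wild type) to 105 (Pdgfrb-Cre). Groups chosen on thinned counts gave 66 and 10 in 2 draws, or 297 and 124 when cells outside the members were let in. Leaving out barcodes of 10 or more other-lineage UMIs gave 51. DESeq2 (20), depth-matched cells (39), 3 rule UMIs (24), no mixed barcodes (34) and the stricter cell filter (32) stayed within 1.5 times. Against venous-type cells, with 268 calls, no block gave 60, DESeq2 109, and another draw 457, or 476 with cells outside the members. Leaving out a library, depth matching, the stricter cell filter and leaving out mixed barcodes were not run there, because fewer than 2 libraries kept 10 cells in both groups.

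With 3 rule UMIs the arterial shares were 19.2%, 27.1% and 36.4%. The wild-type share was 38.4% over cells of at least 2000 UMIs and 39.2% under the stricter filter (1000 genes and 10% mitochondrial UMIs). Thinning gave 25.7% in Pdgfra-Cre, and 24.5% and 27.2% in Pdgfrb-Cre. Without a minimum level, 5541, 5431 and 5072 genes differed 2-fold in Pdgfra-Cre against wild type, Pdgfrb-Cre against wild type and Pdgfrb-Cre against Pdgfra-Cre. A mean over cells gave 586 in the first of these. Members that also passed at 2000 UMIs gave 699 in Pdgfrb-Cre against wild type and 375 between the Cre libraries, which gave 537 without mixed barcodes.

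Against capillary-type cells the log2 sign turned for Igkc with groups chosen at equal depth (0.39, 0.51, 0.19 and 0.30), for Gm42418 (0.0041) and for Sdc4 (0.22). In Pdgfra-Cre against wild type it turned for Fgl2 at equal depth (-0.26), for Hbb-bs without mixed barcodes (2.81), for Hbb-bs and Hba-a1 without barcodes of 10 or more other-lineage UMIs (2.62 and 1.54) and for the mitochondrial genome list as a mean over cells (0.0062). In Pdgfrb-Cre it turned for Clec3b without mixed barcodes (0.0338). The cause was not tested.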
